A study of Mus musculus with 61 samples.

Results

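The pairs of 1 kb bins that join the enhancer Emu to the middle of the mouse immunoglobulin heavy chain locus (Igh) were examined in Tri-C maps of primary B cells. One end of each pair lay in bins 61 to 130 and the other in the last 20 bins of the map, here called the Emu bins, which gave 1400 of the 27495 bin pairs in a map, or 5.09%. The mid-locus bins were also divided into an Emu-distal stretch (bins 61 to 95) and an Emu-proximal stretch (bins 96 to 130). Of the Emu bins, the 10 nearer to the mid-locus are called the inner bins and the last 10 the outer bins. The pairs were defined by position, with earlier results of these data known. Their ends are 85 to 173 kb apart.

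The Igh constant region holds one constant gene after another, each behind its own switch region, with Emu at one end and the 3' regulatory region, which contains the enhancer hs4, at the other. Activated B cells change antibody class by joining the switch region next to Emu to one farther along, after transcription of both. This recombination needs the deaminase AID, and the locus is thought to be folded so that its enhancers and the chosen switch region come close together. A mouse reference annotation orders the constant genes Igha, Ighe, Ighg2c, Ighg2b, Ighg1, Ighg3, Ighd and Ighm. The maps carry no coordinates, so genes were not assigned to single bins. The viewpoints leave empty bins, and these place hs4 at bin 32, IgG2a at bin 86, IgG1 13 bins past the mid-locus, IgG3 at bin 170 and Emu at bin 230 and the next one. The mid-locus bins thus lie between hs4 and IgG1. The IgG2a viewpoint sits inside the Emu-distal stretch and the Emu viewpoint inside the other end of the pairs.

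Tri-C captures chromatin fragments that hold a viewpoint and records which other fragments are joined to them in the same molecule, so each value of a map is the signal for a pair of bins seen together with the viewpoint. There were 61 libraries from 5 probes in 18 groups. In the activation series, titled B18AIDKO (the labels do not spell the name out), cells were taken at 0, 48 and 72 h of activation and captured with Emu, hs4 or IgG1. The Emu and hs4 captures had 2, 3 and 3 libraries at these times. The IgG1 capture had the same from each of 2 clones, whose maps of one replicate number were averaged here into 1 sample. The p-values of these averaged samples thus do not measure the spread between the clones. The growth protocol names LPS and IL4. At 0 h, the first replicate of the Emu and hs4 captures, and of each clone of the IgG1 capture, is titled with 2 replicate numbers. The protocol also gives a larger cell input for 0 h, so cell input and time cannot be told apart. A further B18AIDKO series was captured with Emu after 72 h of activation, without TPL (an agent the labels do not spell out) or with 1 h or 3 h of it (3 libraries each). Another was captured with IgG3 on day 3 and day 0 of LPS (3 libraries each). The Spt5 series, whose titles do not say B18AIDKO, set cells depleted of the transcription elongation factor Spt5 against controls. Depleted cells had 62 h of activation, the last 32 h with 4HT. The controls carry the treatment label WT and no time, so activation time may differ between the groups. This series had 5 depleted and 4 control libraries with an IgG1 pool of probes, over 2 clones, and 3 depleted and 2 control libraries with IgG2a. Nothing in the labels says whether replicates came from separate animals, so p-values measure the spread between these samples, which may be technical. No expression was measured here, so cell identity and the loss of Spt5 were not checked.

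Each map sums to 300000, and values are given as percent of that total. Whole contacts recovered from the values numbered 4194 to 89789 per library, with a median of 20694. They fell in 3 to 184 of the 1400 pairs in a library, with a median of 54. Over all libraries 1059 pairs held signal in at least 1 library and 341 in none. Bins 114, 115 and 117 were empty throughout, and bin 102 in the 47 B18AIDKO libraries. The pairs rested on 8 to 556 recovered contacts per library, with a median of 191, and 8 libraries had fewer than 50.

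The Emu-to-mid-locus pairs held 0.146% to 3.38% of a map, with a median of 1.12% over the 61 libraries. Their share was below the 5.09% that they make up of all pairs in each library. It was also below the product of the signal at their ends in 61 of 61 libraries, with an observed over expected ratio of 0.0288 to 0.609 and a median of 0.195. Set against other pairs of the same separation in the same map, the picture was mixed. The ratio had a median of 1.06 over 53 samples and was under 1 in 26 of them. The group means were highest with the Emu probe at 0 h (3.05 ± 1.20, SD, n = 2) and 48 h (3.05 ± 0.716, n = 3). At 72 h this probe gave 1.63 ± 0.304 (n = 3), below the 1.85 ± 0.505 of the IgG2a probe in Spt5-depleted cells (n = 3). In the TPL series it gave 1.41 ± 0.813 without TPL, 1.44 ± 1.23 after 1 h and 1.57 ± 0.419 after 3 h (n = 3 each). The lowest means were those of the IgG3 probe, at 0.718 ± 0.259 on day 3 and 0.718 ± 0.207 on day 0 (n = 3 each).

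The highest group mean was that of the Emu probe at 0 h, 2.98% ± 0.563 (SD, n = 2), and the next was that of the hs4 probe at 0 h, 2.06% ± 1.11 (n = 2). The lowest were the IgG1 probe in Spt5-depleted cells (0.505% ± 0.141, n = 5), the IgG1 probe in Spt5 controls (0.409% ± 0.168, n = 4) and the IgG2a probe in Spt5 controls (0.152% ± 0.00966, n = 2). In this order of 18 groups, the samples of neighbours overlapped at each step except the last, between the IgG1 and IgG2a captures of Spt5 controls. Levels of different probes have different viewpoints and are given side by side only.

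**Figure D1:**
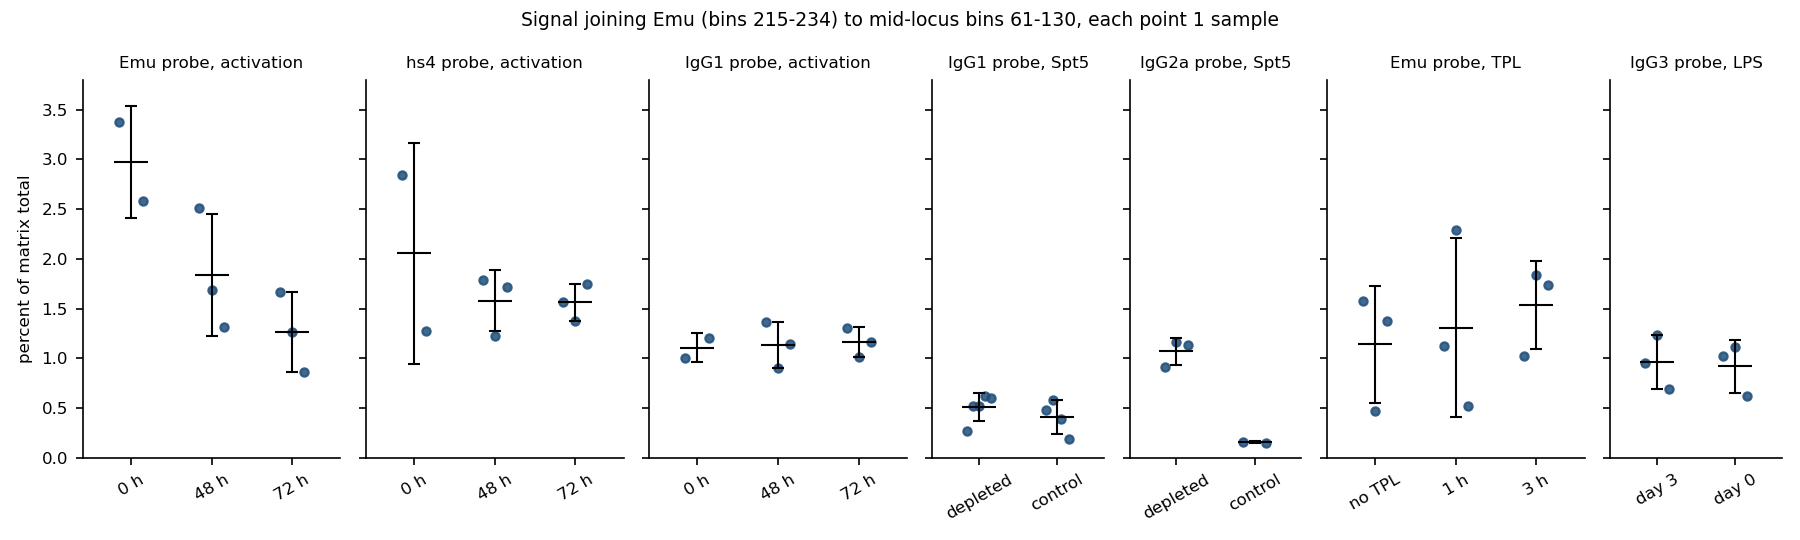
Percent of the map's total in pairs joining the 20 Emu bins to the mid-locus (bins 61 to 130), 1 point per sample, with the group mean and SD as black bars, for the 7 series. The 3 IgG2a samples of depleted cells lie at 0.909% to 1.16%, above both controls at 0.146% and 0.159%, and the Emu probe samples lie lower at 72 h than at 0 h.

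With the IgG2a probe, depletion of Spt5 went with a gain of signal between Emu and the mid-locus. The pairs held 0.909%, 1.16% and 1.13% of the map in the 3 depleted libraries, against 0.159% and 0.146% in the 2 controls. The groups did not overlap. The mean of 1.07% ± 0.139 (SD, n = 3) in depleted cells stood against 0.152% ± 0.00966 (n = 2) in controls. The log2 change was 2.68 (SE 0.43, 95% interval 1.74 to 3.61), with an adjusted p of 0.0081 by limma over all 10-bin tile pairs and region sums. The exact permutation p was 0.1, the smallest that 3 against 2 samples allow.

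Both stretches of the mid-locus rose. The Emu-distal stretch, which holds the IgG2a viewpoint, had 0.563%, 0.778% and 0.824% in depleted libraries, against 0.108% and 0.132% in controls. Its log2 change was 2.42 (SE 0.49, limma adjusted p = 0.016). The Emu-proximal stretch had 0.346%, 0.385% and 0.311% in depleted libraries, against 0.0510% and 0.0136% in controls. Its log2 change was 3.00 (SE 0.66, limma adjusted p = 0.020). All 3 depleted libraries were above both controls in each stretch.

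Few contacts stood behind the control values. The pairs were made up of 140, 189 and 146 recovered contacts in depleted libraries, against 9 of 15392 and 8 of 11623 in controls. As shares of recovered contacts these were 0.833%, 1.09% and 0.925% in depleted libraries, against 0.0585% (95% Wilson interval 0.0308% to 0.111%) and 0.0688% (0.0349% to 0.136%) in controls. Summed over libraries, depleted cells had 15.1 times the contacts per total (exact interval 9.35 to 26.2). For shares of the map the ratio of the means was 7.02, which lies below this interval. Why the measures differ was not tested. In the Emu-proximal stretch the sums were 141 and 4 contacts, a ratio of 19.1 (7.29 to 71.1). These intervals cover counting error only. Contacts of replicate libraries differed by more than counting error, with a chi-square per degree of freedom of 3.45 to 13.8 over the whole map in pairs of replicates.

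The gain was called on one side of the Emu end. The inner Emu bins held 0.664% ± 0.276 in depleted cells, against 0.0476% ± 0.0441 in controls (SD, n = 3 and 2), a log2 change of 3.52 (limma adjusted p = 0.0099). The outer Emu bins, which include the Emu viewpoint, held 0.405% ± 0.235 in depleted cells, against 0.105% ± 0.0537 in controls, a log2 change of 1.71 (limma adjusted p = 0.13). Whether these changes differ was not tested.

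The total signal at the ends was no higher in depleted cells. Emu bins held 2.88% of all pair ends in depleted cells and 3.12% in controls, and the mid-locus held 69.4% in depleted cells and 73.3% in controls. Of the signal with an end in Emu, 25.2%, 26.9% and 32.6% went to the mid-locus in depleted libraries, against 5.20% and 3.93% in controls. That is 28.2% ± 3.89 in depleted cells and 4.56% ± 0.895 in controls, a log2 change of 2.59 (SE 0.41, limma adjusted p = 0.0087, over the features with an end in Emu). Of the signal with an end in the mid-locus, 1.21%, 1.59% and 1.52% went to Emu in depleted libraries, against 0.208% and 0.196% in controls (log2 change 2.12, limma adjusted p = 0.0022). The groups were apart on both scales. Without control replicate 2 the share of the Emu signal changed by 2.395 and was not called (adjusted p = 0.059).

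The rest of the Emu signal mostly stayed within Emu, at 51.2% in depleted cells and 83.6% in controls (limma adjusted p = 0.22). Within the mid-locus, bins 61 to 70 took 5.23% of the Emu signal in depleted cells and were listed at 0 in both controls. A count of 0 allows up to 0.0195% and 0.0258% of a control library's recovered contacts (3 contacts each). These limits are shares of the whole library and cannot be set beside shares of the Emu signal, of which 3 contacts are a larger part. Bins 91 to 100 took 6.39% in depleted cells and 0.104% in controls (limma adjusted p = 0.0087). Bins 101 to 110 took 3.70% in depleted cells and 0.0482% in controls (limma adjusted p = 0.0087). The controls had 9 and 8 recovered contacts over all the Emu-to-mid-locus pairs. Bins 81 to 90, around the viewpoint, took 8.32% in depleted cells and 3.40% in controls, which did not pass (adjusted p = 0.085). The 10 bins just hs4-ward of the mid-locus, bins 51 to 60, took 2.95% of the Emu signal in depleted cells, against 0 in both controls. Stretches at 0 in both controls entered the fit only through the depleted libraries. Their direction was thus fixed, and no test is given for bins 51 to 60 or 61 to 70.

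The Emu-proximal end of the mid-locus showed little difference. Bins 111 to 120 held 0.00972% of the map in depleted cells and were at 0 in both controls. Bins 121 to 130 held 0.0398% ± 0.0454 in depleted cells and 0.0305% ± 0.0290 in controls. The difference between the means of the whole region thus lay in bins 61 to 110. Next to it, the pairs that join Emu to the IgG1 region (the 25 bins that follow the mid-locus) held 0.103% in depleted cells and 0.0793% in controls (log2 change 0.11, limma adjusted p = 0.92). Pairs that join the hs4 region (bins 22 to 41) to the same mid-locus bins held 1.08% in depleted cells and 0.732% in controls (log2 change 0.57, limma adjusted p = 0.30).

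Signal at this range was higher in depleted cells outside these pairs as well. Other pairs of the same separations would give 0.594% ± 0.0930 of the map in depleted cells and 0.201% ± 0.0638 in controls. Against them, the Emu-to-mid-locus pairs stood at 1.85 ± 0.505 in depleted cells and 0.790 ± 0.203 in controls (SD, n = 3 and 2). When the total was taken over pairs at least 20 kb apart, the log2 change was 1.57 and the limma adjusted p 0.097. The region's call was also lost without any single depleted library, with log2 changes of 2.61 to 2.79 and adjusted p of 0.11 to 0.16. Those of the stretches were lost in the same way, and neither control decided the region's call.

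At the level of 10-bin tile pairs, 9 of the 14 that make up the region passed the filter on low signal, a mean of 100 units of the 300000. None passed the adjusted limma threshold of 0.05, against 0.617% of all tile pairs called higher. Tile pairs at or near 0 in the controls passed the filter only through the depleted libraries and so had to be higher there. Their direction was fixed by the filter and is not counted. The median log2 change over all tested tile pairs was 0.91. The tile pair of bins 81 to 90 with the inner Emu bins had 0.204% to 0.234% in depleted libraries, against 0.00728% and 0.0652% in controls (log2 change 2.41, adjusted p = 0.083).

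**Figure D2:**
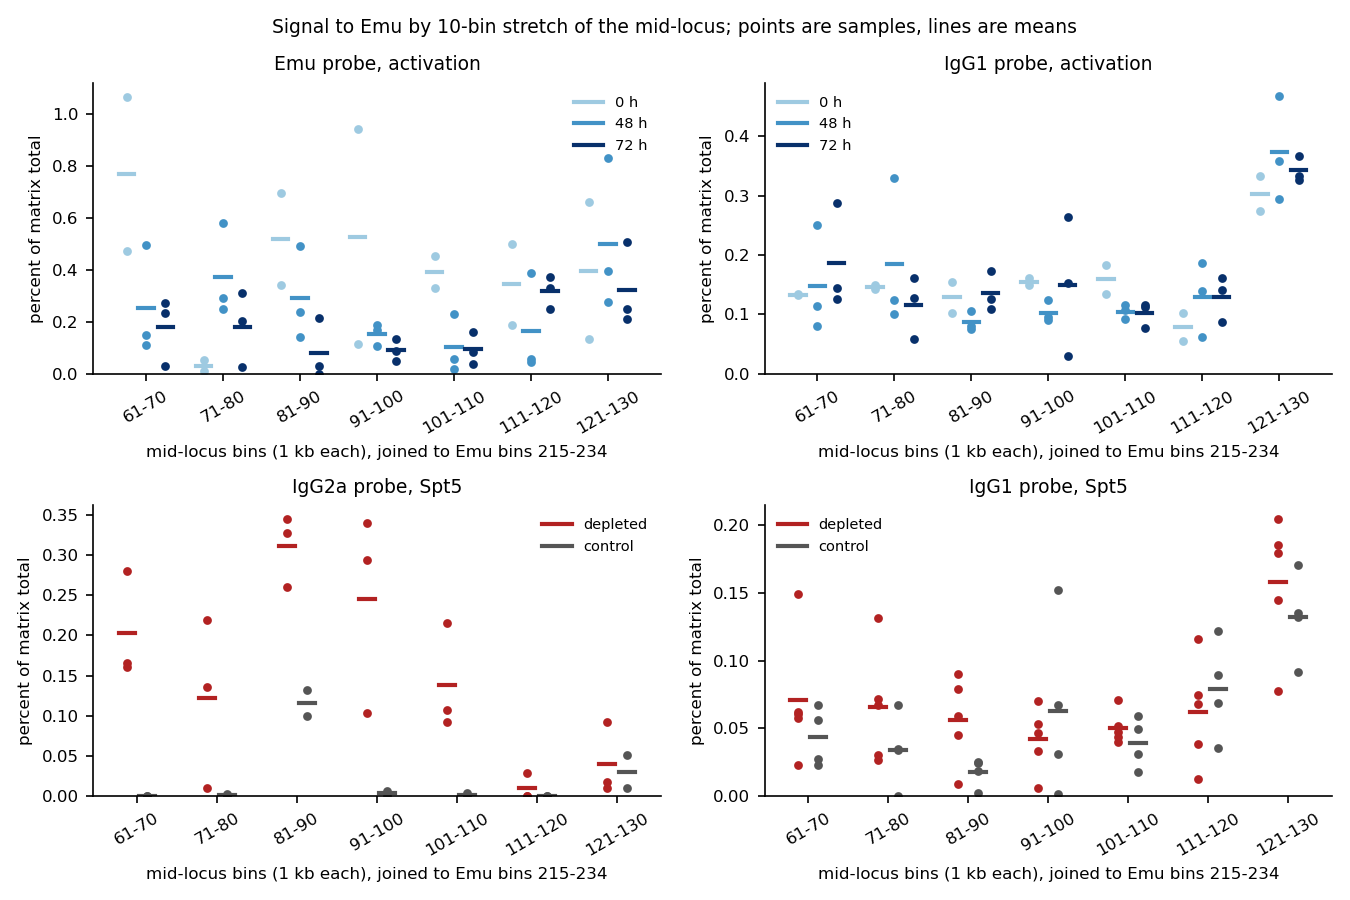
Percent of the map's total that joins each 10-bin stretch of the mid-locus to Emu, with samples as points and group means as lines, in 4 series with their own vertical scales. With the IgG2a probe depleted cells lie above controls from bins 61 to 110 and not in bins 121 to 130, where the means are 0.0398% and 0.0305%.

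With the IgG1 probes, Spt5 depletion showed no called change in the same pairs. The depleted libraries held 0.265% and 0.523% (clone 1) and 0.523%, 0.616% and 0.598% (clone 2), against 0.476% and 0.581% (clone 1) and 0.393% and 0.185% (clone 2) in controls. The groups overlapped. The log2 change with a term for clone was 0.35 (95% interval -0.25 to 0.96, limma adjusted p = 0.49). In clone 1 the mean was 0.394% in depleted cells and 0.529% in controls, and in clone 2 it was 0.579% in depleted cells and 0.289% in controls.

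The Emu-distal stretch had the larger difference of the 2 stretches. It held 0.221% ± 0.101 in depleted cells, against 0.112% ± 0.0589 in controls (SD, n = 5 and 4), with a log2 change of 0.94 that did not pass (limma adjusted p = 0.14). The Emu-proximal stretch held 0.284% ± 0.0813 in depleted cells and 0.297% ± 0.115 in controls (log2 change -0.03). Without replicate 3 of clone 1 of the depleted cells, which had 64 recovered contacts in these pairs, the changes were called for the region (0.67, adjusted p = 0.048) and for the Emu-distal stretch (1.48, adjusted p = 0.0038). Other single libraries pulled the other way. Without control replicate 2 of clone 2 the change of the region was -0.044. Over all libraries left out in turn, the Emu-distal change was 0.38 to 1.48.

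As a share of the Emu signal, the pairs took 3.25%, 6.14%, 6.49%, 7.82% and 8.30% in depleted libraries, against 2.65%, 4.91%, 2.68% and 1.30% in controls. One depleted library lay within the control range. The means were 6.40% in depleted cells and 2.89% in controls (log2 change 1.17, limma adjusted p = 0.062, exact permutation p within clones 0.05, where the smallest possible is 0.0167). Without that library of clone 1, the share of Emu signal changed by 1.49 (adjusted p = 0.017), and without control replicate 3 of clone 1 by 1.48 (adjusted p = 0.035). Over all libraries left out in turn, the change of this share was 0.78 to 1.49. The signal at the ends differed between the groups here, with 6.53% of all ends in Emu in depleted cells and 12.98% in controls, and 28.5% of ends in the mid-locus in depleted cells and 20.3% in controls. As a share of the mid-locus signal, the pairs took 1.54% in depleted cells and 1.78% in controls (log2 change -0.15, adjusted p = 0.79). Of the 14 tile pairs, 5 passed the filter and none was called, against 8.65% of all tile pairs called higher, 2.7% called lower and 11.4% called in either direction. None of the 5 was under an unadjusted p of 0.05. Their log2 changes had a median of 0.16, beside 0.34 over all tile pairs, and the 9 left out by the filter are not described by it.

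The responses to Spt5 depletion seen through the 2 captures differed. The change with IgG1 was lower than that with IgG2a by a log2 difference of -2.32 (SE 0.58, 95% interval -3.51 to -1.13, limma adjusted p = 0.022). For the Emu-proximal stretch it was -3.04 (adjusted p = 0.012) and for the Emu-distal stretch -1.48 (adjusted p = 0.31). The 2 captures are made from different viewpoints, and only the IgG2a viewpoint lies within the pairs. The difference for the region was not called without control replicate 1 of clone 1 (-2.22, adjusted p = 0.073) or of clone 2 (-2.28, adjusted p = 0.055) of the IgG1 capture. It was between -2.72 and -2.005 over all libraries left out in turn.

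With the Emu probe, activation went with a loss of signal to the mid-locus. The pairs held 3.38% and 2.58% at 0 h, 2.51%, 1.68% and 1.31% at 48 h, and 1.66%, 1.26% and 0.857% at 72 h. Each 72 h sample lay below both 0 h samples, as did each 48 h sample, while 48 h and 72 h overlapped. At 72 h, against 0 h, the log2 change was -1.27 (SE 0.34, 95% interval -1.99 to -0.54, limma adjusted p = 0.030). At 48 h, against 0 h, it was -0.73 (SE 0.34, adjusted p = 0.20). The exact permutation p for 72 h was 0.1, the smallest possible with 3 against 2.

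The loss was called in the Emu-distal stretch as a whole, although the means of bins 71 to 80 within it were higher at 48 h and 72 h (values below). The whole stretch held 1.23% and 1.85% at 0 h, 0.8999%, 1.13% and 0.936% at 48 h, and 0.677%, 0.473% and 0.230% at 72 h. The 3 times did not overlap. The log2 change at 72 h was -1.80 against 0 h (SE 0.44, limma adjusted p = 0.023) and -1.19 against 48 h (limma adjusted p = 0.45). The Emu-proximal stretch held 2.14% and 0.731% at 0 h, 1.61%, 0.559% and 0.379% at 48 h, and 0.988%, 0.791% and 0.627% at 72 h, and its times overlapped. The Emu-distal call was lost without 72 h replicate 2 (-1.89, adjusted p = 0.055) or 3 (-1.39, adjusted p = 0.081), and with the total of pairs at least 20 kb apart (-1.46, adjusted p = 0.064). For the Emu-proximal stretch the log2 change at 72 h against 0 h was -0.66 (95% interval -1.86 to 0.55, adjusted p = 0.53).

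By side of the Emu end, the loss was called in the inner bins, with 0.259% ± 0.0408 at 72 h, against 1.20% ± 0.696 at 0 h (SD, n = 3 and 2; log2 change -2.03, limma adjusted p = 0.046). In the outer bins the share was 1.00% ± 0.395 at 72 h, against 1.78% ± 0.133 at 0 h (log2 change -0.89, adjusted p = 0.15). One of the 13 tested tile pairs was called lower, against 2.56% of all tile pairs called lower, 6.15% called higher and 8.72% called in either direction at 72 h. It joins bins 81 to 90 to the outer Emu bins and held up to 0.0790% at 72 h, against 0.237% and 0.674% at 0 h (log2 change -3.33, SE 0.89, limma adjusted p = 0.030). No tile pair was called without 48 h replicate 2, 72 h replicate 1 or 72 h replicate 3. Of the 13, 9 were lower and 4 higher at 72 h, with a median of -1.13 beside -0.30 over all tile pairs. At 48 h none was called, against 2.05% of all tile pairs called higher and 3.59% called in either direction.

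As a share of the map, pairs of Emu with the IgG1 region changed in the other direction. They averaged 0.968% of the map at 0 h, then 2.16% at 48 h, and 2.48% at 72 h. Their log2 change at 72 h against 0 h was 1.45 (limma adjusted p = 0.023). As a share of all Emu signal, the mid-locus took 7.43% ± 1.48 at 0 h (n = 2), 3.65% ± 1.54 at 48 h and 3.01% ± 1.11 at 72 h (SD, n = 3 each). The log2 change of this share at 72 h against 0 h was -1.31 (limma adjusted p = 0.092). The IgG1 region took 2.41% of the Emu signal at 0 h and 5.86% at 72 h (log2 change 1.31, limma adjusted p = 0.092). On the scale of the Emu signal neither change was called. No change was called in pairs of hs4 with the mid-locus, whose means were 1.79%, 1.13% and 1.55% at 0, 48 and 72 h.

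The ends in the mid-locus themselves were fewer after activation in this capture. Their share of all ends was 23.3%, 11.6% and 15.2% at 0, 48 and 72 h. As a share of the mid-locus signal, the pairs took 10.3% ± 0.758 at 0 h, 12.8% ± 1.83 at 48 h and 6.86% ± 1.83 at 72 h. For this share the log2 change was -0.61 at 72 h against 0 h (limma adjusted p = 0.18) and -0.90 at 72 h against 48 h (adjusted p = 0.10), where the samples did not overlap. The call for the region at 72 h was lost with the total of pairs at least 20 kb apart (-0.89, adjusted p = 0.15), with voom on recovered contacts (-1.15, adjusted p = 0.052), and without 0 h replicate 1 (-1.07, adjusted p = 0.10) or any single 72 h library (-1.49 to -1.02, adjusted p = 0.054 to 0.15).

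**Figure D3:**
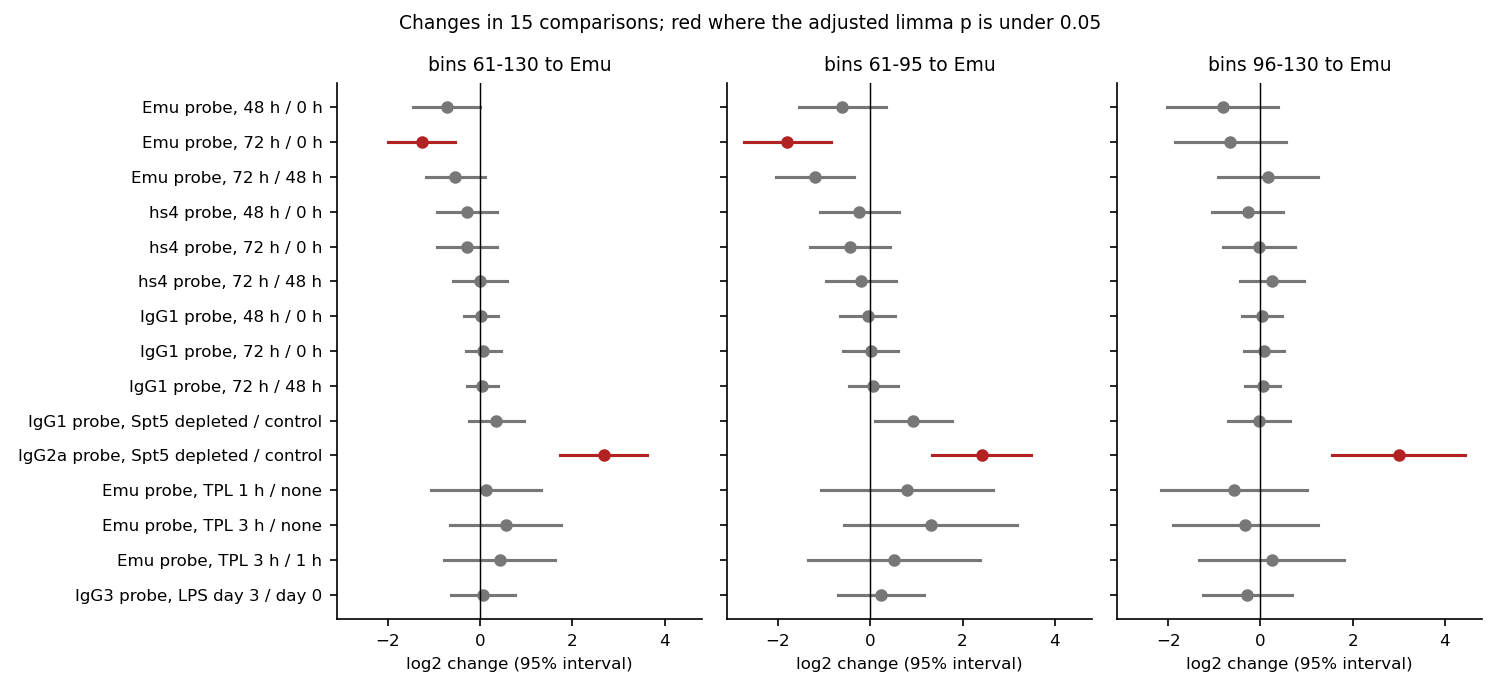
Fitted log2 changes with 95% intervals for 15 comparisons, for the whole region (left), the Emu-distal stretch (middle) and the Emu-proximal stretch (right). Red marks an adjusted limma p under 0.05, which holds for the Emu probe at 72 h (region -1.27, distal stretch -1.80) and for the IgG2a probe after Spt5 depletion (2.68, 2.42 and 3.00).

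With the hs4 probe, the same pairs showed no called change over activation. They held 2.84% and 1.27% at 0 h, 1.79%, 1.22% and 1.72% at 48 h, and 1.57%, 1.37% and 1.75% at 72 h. The 0 h samples lay on both sides of the others, apart from 1 sample at 48 h that was the lowest. The log2 change was -0.29 at 48 h (95% interval -0.94 to 0.36, limma adjusted p = 0.66) and -0.29 at 72 h (-0.94 to 0.36, adjusted p = 0.68), against 0 h. The high 0 h sample owed 34.3% of its signal in the pairs to 1 bin pair. The Emu-distal stretch held 1.34% ± 0.996 at 0 h (n = 2), 0.985% ± 0.233 at 48 h and 0.856% ± 0.226 at 72 h, and the Emu-proximal stretch 0.719% ± 0.117, 0.592% ± 0.111 and 0.707% ± 0.147 at the same times (SD, n = 3 each).

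In the same maps, pairs of Emu with the IgG1 region rose at 72 h, to 1.06%, against 0.299% at 0 h (log2 change 1.76, limma adjusted p = 0.020). Of the Emu signal, 15.0% ± 6.91 went to the mid-locus at 0 h, 13.3% ± 1.62 at 48 h and 12.4% ± 0.284 at 72 h. None of the 13 tested tile pairs was called at 48 h or 72 h against 0 h, where 3.61% and 2.81% of all tile pairs were called. The medians of the 13 were 0.10 at 48 h and 0.36 at 72 h, beside -0.17 and -0.08 over all tile pairs. The pairs of hs4 with the mid-locus, near this viewpoint, had means of 6.46%, 5.88% and 6.99% at 0, 48 and 72 h.

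With the IgG1 probe no change in the share of the pairs was called. Samples held 1.00% and 1.21% at 0 h, 1.36%, 0.898% and 1.14% at 48 h, and 1.31%, 1.01% and 1.16% at 72 h, and the 3 times overlapped. The log2 change was 0.02 at 48 h (95% interval -0.35 to 0.39) and 0.07 at 72 h (-0.30 to 0.44) against 0 h, with limma adjusted p of 0.93 and 0.77. The Emu-proximal stretch held 0.659% ± 0.0974, 0.676% ± 0.116 and 0.701% ± 0.139 at 0, 48 and 72 h. The Emu-distal stretch held 0.446% ± 0.0477, 0.457% ± 0.217 and 0.461% ± 0.140 at these times (SD, n = 2, 3 and 3).

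The signal at the ends of the pairs differed between times in opposite directions. Emu had 5.30%, 16.8% and 18.4% of all ends at 0, 48 and 72 h, and the mid-locus had 33.2%, 18.9% and 16.4% at these times. As a share of the Emu signal, the pairs took 13.2% and 16.4% at 0 h, 6.75%, 4.24% and 5.28% at 48 h, and 5.70%, 4.38% and 4.82% at 72 h. Every later sample lay below both 0 h samples. The log2 changes of this share were -1.44 at 48 h and -1.54 at 72 h against 0 h (SE 0.25 each, limma adjusted p = 8.6e-04 and 5.6e-04).

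The fall as a share of the Emu signal, whose total rose, held in both stretches. The Emu-proximal stretch took 8.82% of the Emu signal at 0 h, 3.22% at 48 h and 2.99% at 72 h, and the Emu-distal stretch took 5.97%, 2.20% and 1.98% at these times (limma adjusted p = 5.6e-04 and 0.0062 for 72 h against 0 h). By 10-bin stretch at 72 h against 0 h, bins 71 to 80, 81 to 90, 91 to 100, 101 to 110 and 121 to 130 fell on this scale. Bins 101 to 110 took 0.438% at 72 h, against 2.13% at 0 h (log2 change -1.92, adjusted p = 1.9e-04). Bins 121 to 130 took 1.46% at 72 h, against 4.07% at 0 h (log2 change -1.37, adjusted p = 5.6e-04). Bins 61 to 70 and 111 to 120 did not pass, with log2 changes of -1.09 (adjusted p = 0.057) and -0.74 (adjusted p = 0.12).

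As a share of the mid-locus signal, whose total fell, the same pairs took more at the later times. Their share of the map showed no called change. They took 2.41% and 2.88% of the mid-locus signal at 0 h, 5.54%, 4.13% and 5.005% at 48 h, and 6.23%, 4.78% and 5.82% at 72 h. Again 0 h stood apart, now below the later times. The log2 changes were 0.84 at 48 h and 1.04 at 72 h against 0 h (SE 0.21 each, limma adjusted p = 0.0065 and 0.0012). The 48 h call was lost without 0 h replicate 1 (0.72, adjusted p = 0.099). The gain on this scale was not particular to Emu. Pairs of hs4 with the mid-locus took 2.84%, 4.64% and 5.72% of the mid-locus signal at 0, 48 and 72 h. Their log2 changes were 0.67 at 48 h and 0.96 at 72 h against 0 h (limma adjusted p = 0.014 and 0.0012). For the Emu-to-mid-locus pairs, the observed over expected ratio, which takes both ends into account, was 0.315, 0.180 and 0.193 at 0, 48 and 72 h.

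The pairs of Emu with the IgG1 region, around the viewpoint, rose on the scale of the whole map, to 2.62% at 48 h and 3.21% at 72 h, against 1.06% at 0 h (log2 changes 1.29 and 1.58, limma adjusted p = 4.3e-08 and 6.6e-10). As a share of the Emu signal they held 13.7% at 72 h and 14.2% at 0 h (log2 change -0.05, adjusted p = 0.86). So on the same scale on which the mid-locus fell, no change of the IgG1 region was called. All 14 tile pairs passed the filter. One was called lower at 48 h, against 26.6% of all tile pairs called lower and 39% called in either direction. It joins bins 91 to 100 to the inner Emu bins and held 0.0220% to 0.0481% at 48 h, against 0.0950% to 0.150% at 0 h (log2 change -1.39, SE 0.54, adjusted p = 0.044). No tile pair was called at 48 h without 0 h replicate 1 or 2 or 48 h replicate 2 or 3, with a pseudocount of 10, with no filter or in clone 1 alone, and 2 were called without 48 h replicate 1. At 72 h none was called, against 23.9% of all tile pairs called lower and 38.2% called in either direction.

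The libraries of the 2 clones overlapped at 48 h, while those of clone 1 lay above those of clone 2 at 0 h and 72 h. Clone 1 held 1.08% to 1.49% at 0 h, against 0.921% to 0.928% in clone 2. At 72 h clone 1 held 1.11% to 1.70%, against 0.776% to 0.919% in clone 2. Whether the clones differ in level was not tested. Clone 1 had 1.29% at 0 h (n = 2), 1.24% at 48 h and 1.46% at 72 h, and clone 2 had 0.925% at 0 h (n = 2), 1.03% at 48 h and 0.868% at 72 h (n = 3 each). The share of the Emu signal was 15.9%, 6.34% and 5.96% in clone 1 and 13.5%, 4.63% and 3.86% in clone 2 at 0, 48 and 72 h. The difference of the changes between clones, clone 2 minus clone 1, was 0.15 at 48 h and -0.27 at 72 h for the share of the map (limma adjusted p = 0.95 and 0.81).

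**Figure D4:**
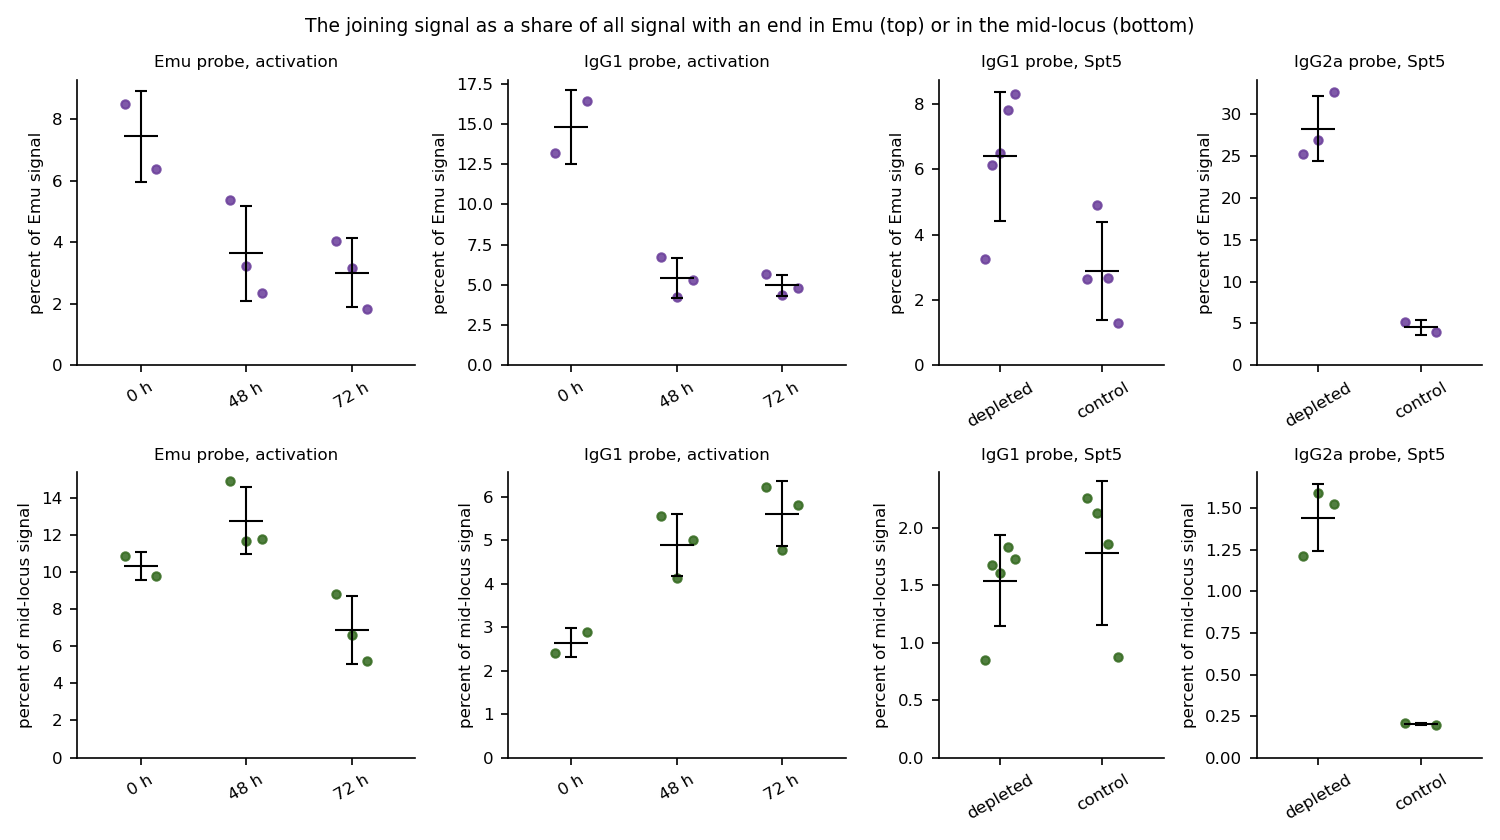
The Emu-to-mid-locus signal as percent of all signal with an end in Emu (top) or in the mid-locus (bottom), by sample with group mean and SD, each panel on its own scale from 0. With the IgG1 probe the 0 h samples lie highest at the top (13.2% and 16.4%) and lowest at the bottom (2.41% and 2.88%), and with the IgG2a probe depleted cells lie above controls in both.

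The changes at 72 h against 0 h were set against each other across captures. The change with IgG1 exceeded that with Emu by 1.33 for the region (95% interval 0.41 to 2.26, limma adjusted p = 0.077) and by 1.81 for the Emu-distal stretch (adjusted p = 0.082). The change with hs4 exceeded that with Emu by 0.98 (adjusted p = 0.25), and that with IgG1 exceeded that with hs4 by 0.36 (adjusted p = 0.73). None of these passed.

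TPL treatment of cells at 72 h of activation gave no called change in these pairs. Libraries held 1.58%, 0.466% and 1.37% without TPL, 1.12%, 2.29% and 0.517% after 1 h, and 1.03%, 1.84% and 1.74% after 3 h, and all 3 groups overlapped. Against no TPL, the log2 change was 0.13 after 1 h (95% interval -1.07 to 1.33) and 0.55 after 3 h (-0.65 to 1.75), with limma adjusted p of 0.94 and 0.80. These intervals are wide. The pairs rested on 10 to 97 recovered contacts per library, and a single bin pair made up as much as 64.6% of their signal.

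By stretch, the Emu-distal pairs held 0.592%, 0.952% and 0.993% without TPL, after 1 h and after 3 h, and the Emu-proximal pairs 0.547%, 0.356% and 0.540%. The limma adjusted p of these was 0.57 to 0.89 against no TPL. In the inner Emu bins the share was 0.177% ± 0.166 without TPL, 0.170% ± 0.145 after 1 h and 0.567% ± 0.191 after 3 h (SD, n = 3 each). The 3 h libraries all lay above the others there (log2 change 2.38 against no TPL, limma adjusted p = 0.33). Pairs of Emu with the IgG1 region held 1.10% without TPL, 3.61% after 1 h and 3.17% after 3 h (adjusted p = 0.024 and 0.087 against no TPL). The libraries without TPL held 0.841%, 1.39% and 1.06%. In the activation series, Emu probe libraries held 3.23%, 2.12% and 2.08% at 72 h, and 0.552% and 1.38% at 0 h. Ends in the mid-locus were 20.03% to 24.5% without TPL, at most 16.2% at 72 h, and 21.6% and 24.98% at 0 h. The Emu-to-mid-locus pairs went the other way, with means of 1.14% without TPL, 1.26% at 72 h and 2.98% at 0 h. Why these series differed at 72 h was not tested. None of the 11 tested tile pairs was called after 1 h, against 1.68% of all, or after 3 h, against 0% of all. Recovered contacts numbered 4194 to 6645 in libraries without TPL, 6431 to 15296 after 1 h and 6466 to 10705 after 3 h. The range without TPL lay lowest and overlapped the others only narrowly.

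With the IgG3 probe, the pairs held 0.951%, 1.23% and 0.689% on day 3 of LPS, against 1.03%, 1.12% and 0.615% on day 0. The groups overlapped throughout. The log2 change was 0.06 (95% interval -0.63 to 0.75, limma adjusted p = 0.95). The Emu-distal stretch held 0.525% on day 3 and 0.445% on day 0, and the Emu-proximal stretch 0.433% on day 3 and 0.475% on day 0. Of the Emu signal, 7.31% went to the mid-locus on day 3 and 7.80% on day 0, and of the mid-locus signal 4.33% went to Emu on day 3 and 3.36% on day 0. None of the 11 tested tile pairs was called, against 0.855% of all.

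At single bins, the signal was scattered and differed between libraries. In 16 of the 18 groups the highest bin pair of the group mean held signal in only 1 library, and in the other 2 groups in 2 libraries. A bin pair's share of the region's signal in its library was 5.19% to 64.6% for the highest pair, with a median of 13.3%. Among the 3 highest pairs of each group, one held signal in every library, that of bins 130 and 228 with the hs4 probe at 72 h (3 libraries, mean 0.1001% of the map). No bin pair held signal in more than 25 of the 61 libraries.

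Summed over the Emu bins, single mid-locus bins recurred little more. The highest mid-locus bin was among the 5 highest of every sample in 2 groups, and the highest Emu bin in 3 groups. With the IgG1 probe at 72 h, Emu bins 229 and 223 were among the 5 highest in 3 of 3 samples, with 12.9% and 9.67% of the region's signal. The highest mid-locus bins there were 128, 129 and 130, the bins nearest to IgG1, with 4.77%, 4.66% and 4.33%. With the Emu probe at 48 h, mid-locus bin 125 was among the 5 highest in 3 of 3 samples, with 0.104% to 0.168% of the map.

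The profile along the mid-locus also differed between captures. With the IgG1 probe, bins 121 to 130 held most at each time, with 0.304% ± 0.0412 at 0 h (n = 2), 0.374% ± 0.0875 at 48 h and 0.343% ± 0.0218 at 72 h (SD, n = 3 each). The other 10-bin stretches had means of 0.0793% to 0.186%. With the Emu probe, no stretch was highest at every time. The highest was bins 61 to 70 at 0 h (0.769% ± 0.419), bins 121 to 130 at 48 h (0.501% ± 0.292) and bins 121 to 130 at 72 h (0.322% ± 0.163). Bins 71 to 80 went against the rest of the Emu-distal stretch in this capture, with 0.0305% ± 0.02998 at 0 h, 0.373% ± 0.180 at 48 h and 0.180% ± 0.143 at 72 h. Their tile pair with the outer Emu bins had a log2 change of 3.15 at 48 h against 0 h (limma adjusted p = 0.11), which was not called.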

How the data were processed

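The data were Tri-C maps of 61 libraries. Per the submitters' processing notes, reads were aligned with Bowtie2 to mm9. Not given in the sources used here were the Bowtie2 version, how contacts were called and how duplicates were treated. Per the values, the deposited signal of a library is a 234 by 234 matrix in 1 kb bins, filled on and above the diagonal and scaled by the authors to sum to about 300000. Contacts were recovered as whole numbers by fitting a divisor to each bin of a library. Since the divisors were inferred from the values themselves, these contacts were used as a measure of depth and in alternative tests. Among values of fewer than 20 contacts, those off the diagonal came out whole (within 0.04, or 1.5 times the rounding error) in 97.9% to 100% of cases, which the fit was chosen to give. On the diagonal the share was 61.9% to 100%, and it exceeded 90% in 51 libraries. The total was recovered to within 5% in 8 of 8 simulated libraries.

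Bins are counted from the first bin of the map. The Emu bins were 215 to 234 (inner 215 to 224, outer 225 to 234), the hs4 region was bins 22 to 41 and the IgG1 region bins 131 to 155. The map was tiled into 24 stretches of mostly 10 bins, which gave 300 tile pairs, 14 of them the pairs described. These and 7 region sums were tested together with limma 3.58.1 (R 4.3.3), with a trended prior, on log2(value + 50), for features with a mean of at least 100. Fold changes are on that scale, which understates changes of low values. P-values were adjusted by Benjamini-Hochberg over all features of a comparison, 15 comparisons in all. Shares of the Emu or mid-locus signal were fitted on log2(value + 500) after scaling to 300000. Groups of one series shared one fit. The IgG1 fit of Spt5 had a term for clone. Exact permutation tests over samples were two-sided. The regions and tile pairs named were the whole region, its stretches, the compared regions and each tile pair called. The stretches of 10 bins and the tile pairs named without a call were chosen after their values were seen. The pairs and regions were chosen with earlier results of these data known. The fit was tested on simulated data. Alternatives were other pseudocounts, no filter, other totals, voom on recovered contacts, a divisor shared by the libraries, one side of Emu, clones alone or apart, a replicate block, and each library left out.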

Additional observations from a re-analysis of the deposited data

Results flagged for a closer look

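Among the 5 Spt5-depleted libraries of the IgG1 capture, replicate 3 of clone 1 stood apart from the others, with 0.265% of its map in the Emu-to-mid-locus pairs, against 0.523% to 0.616% in the other 4. It had 64 recovered contacts there. Only the depleted and control groups of this capture were large enough for this check. It was run 8 times, over the shares of the region, of its stretches and of the Emu signal. These quantities overlap, and chance flags about 5% of such runs.

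The changes with Spt5 depletion differed between captures by a direct test. The log2 change with IgG1 was lower than that with IgG2a by -2.32 for the whole region and by -3.04 for the Emu-proximal stretch (limma adjusted p = 0.022 and 0.012), with 5 and 4 libraries of the IgG1 capture and 3 and 2 of the IgG2a capture, depleted and control. For the Emu-distal stretch the difference was -1.48 and did not pass (adjusted p = 0.31). The region's difference was not called without control replicate 1 of clone 1 (-2.22, adjusted p = 0.073) or of clone 2 (-2.28, adjusted p = 0.055) of the IgG1 capture.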

How the results depend on the processing

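All values here are log2 changes of limma fits unless called counts of tile pairs. Of 743 values recomputed under other settings 646 kept their direction and their side of the threshold, 63 changed sign, 13 lost a call, 2 gained one and 19 counts moved. With 1 library left out at a time these numbers were 650, 64, 19, 6 and 17 of 756. Where a library left out leaves 1 sample in a group, that sample is assumed to vary like the other groups. The divisor shared by the libraries, and the alternatives for the share of the mid-locus signal and for the differences between captures and clones, were chosen after seeing the data. The causes of these shifts were not tested. The sign changes of the activation series with IgG1 and hs4, of TPL and of IgG3 were of values that were not called. Libraries with few recovered contacts in these pairs limit what can be seen, above all in the TPL series.

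A different total shifted the fitted changes. With the total of pairs at least 20 kb apart, the median of all tile pairs was 0.74 for Spt5 depletion with IgG2a (0.91 with the whole total), 0.10 with IgG1 (0.34), 0.01 for the Emu probe at 72 h against 0 h (-0.30) and 0.01 for IgG1 at 48 h against 0 h (-0.34). Under it, Spt5 depletion with IgG2a gave 1.57 for the region (adjusted p = 0.097), 2.43 for the Emu-proximal stretch (0.11) and 1.34 for the Emu-distal stretch (0.19). It gave -0.097 for the region with IgG1. For the Emu probe it gave -0.89 for the region (0.15) and -1.46 for the Emu-distal stretch (0.064) at 72 h against 0 h, -0.052 for the Emu-proximal stretch at 72 h against 48 h, and 1 tile pair called at 48 h against 0 h. For hs4 the region was 0.14, the Emu-proximal stretch 0.14 and the Emu-distal stretch 0.19 at 48 h against 0 h, and the Emu-proximal stretch was 0.084 at 72 h against 0 h and -0.056 at 72 h against 48 h. For IgG1 the Emu-distal stretch was 0.35 at 48 h against 0 h, and at 72 h against 48 h the region was -0.145, the Emu-proximal stretch -0.15 and the Emu-distal stretch -0.13. The region was -0.045 after 1 h of TPL.

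The median of ratios gave 2.75 for the Emu-proximal stretch with IgG2a after Spt5 depletion (adjusted p = 0.05), where the median of all tile pairs was 0.64. It also gave -0.051 for the Emu-proximal stretch with Emu at 72 h against 48 h, 0.30 for the Emu-distal stretch with IgG1 at 48 h against 0 h, -0.047, -0.049 and -0.031 for the region and its Emu-proximal and Emu-distal stretches with IgG1 at 72 h against 48 h, and -0.072 for the region after 1 h of TPL. A total without pairs near the viewpoint gave -0.068 for the Emu-proximal stretch with Emu and 0.032 for the region with hs4 at 72 h against 48 h. With IgG1 it gave -0.066 for the region and -0.056 for the Emu-proximal stretch at 48 h, and -0.055 for the Emu-distal stretch with 1 tile pair called at 72 h, all against 0 h.

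With voom on recovered contacts, the region with Emu at 72 h against 0 h was -1.15 (adjusted p = 0.052), and 1 tile pair was called with Emu at 48 h and 1 with IgG2a. With IgG1 at 48 h against 0 h the region was -0.33, the Emu-proximal stretch -0.11 and the Emu-distal stretch -0.68, which was called (adjusted p = 0.017). At 72 h against 0 h they were -0.20, -0.15 and -0.30 with 1 tile pair called, and the Emu-proximal stretch was -0.037 at 72 h against 48 h. The Emu-proximal stretch was 0.26 and 0.30 with hs4 at 48 h and 72 h against 0 h, and 0.32 with IgG1 after Spt5 depletion. After 1 h of TPL the region was -1.27 and the Emu-distal stretch -0.78, and on day 3 of LPS with IgG3 they were -0.049 and -0.14. A shared divisor gave -0.021 for the region and -0.014 for the Emu-proximal stretch with IgG1 at 48 h, 1 tile pair called with IgG1 and 2 with Emu at 72 h, and -0.11 for the region after 1 h of TPL.

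Pseudocounts of 10 and 200 gave 0 and 2 tile pairs called with Emu at 72 h, and a pseudocount of 10 or no filter gave 0 called with IgG1 at 48 h. Without the filter 1 was called with IgG1 at 72 h. With the outer Emu bins alone the region was 1.71 with IgG2a (adjusted p = 0.13), -0.89 with Emu at 72 h against 0 h (0.15), 0.023 with hs4 and -0.013 with IgG1 at 72 h against 48 h, -0.555 with IgG3, and -0.10 against no TPL and -0.25 against 1 h after 3 h of TPL. With the inner Emu bins alone it was -0.36 and -0.23 with IgG1 at 48 h and 72 h against 0 h, and 0.10, 0.13 and 0.028 with hs4 at 48 h against 0 h, 72 h against 0 h and 72 h against 48 h. On the percentages themselves, the log2 ratio of means was 2.81 with IgG2a and -1.24 with Emu at 72 h, and their exact permutation p adjusted over the comparisons was 0.75 for both.

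In clone 1 alone the IgG1 region was -0.047 at 48 h with 0 tile pairs called, and 1 was called at 72 h. In clone 2 alone the region was -0.093 at 72 h, the Emu-proximal stretch -0.014 at 48 h and the Emu-distal stretch 0.27 at 48 h and -0.315 at 72 h, all against 0 h, with 2 tile pairs called at 72 h. At 72 h against 48 h clone 2 gave -0.199 for the region and -0.59 for the Emu-distal stretch. With clones apart the Emu-distal stretch was -0.082 at 72 h against 0 h and -0.059 against 48 h, with 2 called at 72 h. With the Spt5 libraries of one replicate number summed, the IgG1 capture gave 1.25 for the Emu-distal stretch (adjusted p = 0.04) and 0.026 for the Emu-proximal stretch.

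The samples shared replicate numbers, but deviations of same-numbered samples had correlations of -0.179 to 0.183 and in no series were all over 0.1, so the numbers were not taken as pairs. With a replicate block the Emu-distal stretch with Emu at 72 h against 0 h was -1.58 (adjusted p = 0.05) with 0 tile pairs called, and the share of the Emu signal with IgG2a was 2.48 (adjusted p = 0.1). The block gave -0.10 for the Emu-proximal and 0.135 for the Emu-distal stretch with IgG1 at 48 h, -0.056 for the Emu-proximal stretch with 1 called at 72 h, 0.11 for the Emu-proximal stretch with IgG1 after Spt5 depletion, and 1 called with hs4 at 48 h.

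Over libraries left out in turn, Spt5 depletion with IgG2a gave 2.61 to 2.79 for the region, 2.42 to 3.58 for the Emu-proximal and 2.29 to 2.58 for the Emu-distal stretch, 2.395 to 2.78 for the share of the Emu signal and 0 to 1 tile pairs called. With IgG1 the region was -0.044 (without control replicate 2 of clone 2) to 0.67 (without depleted replicate 3 of clone 1), the Emu-proximal stretch -0.37 to 0.19, the Emu-distal stretch 0.38 to 1.48, the share of the Emu signal 0.78 to 1.49 and that of the mid-locus signal -0.49 to 0.11. The difference between these captures was -2.72 to -2.005.

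For the Emu probe at 72 h against 0 h the ranges were -1.49 to -1.02 for the region, -1.42 to 0.11 for the Emu-proximal stretch, -2.135 to -1.39 for the Emu-distal stretch and 0 to 1 called. At 48 h against 0 h the Emu-proximal stretch was -1.59 to -0.056 with 0 to 1 called. At 72 h against 48 h it was -0.27 to 0.75, with -0.51 to 0.053 for the share of the Emu signal and -1.10 to -0.72 for that of the mid-locus signal.

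The IgG1 probe at 48 h against 0 h gave -0.12 to 0.175 for the region, -0.12 to 0.18 for the Emu-proximal and -0.41 to 0.13 for the Emu-distal stretch, 0.72 (without 0 h replicate 1) to 0.96 for the share of the mid-locus signal and 0 to 2 called. At 72 h against 0 h it gave -0.063 to 0.20, -0.072 to 0.22 and -0.205 to 0.22 for the region and these stretches, with 0 to 1 called. At 72 h against 48 h it gave -0.11 to 0.19, -0.089 to 0.19 and -0.15 to 0.41, and -0.27 to 0.06 for the share of the Emu signal.

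The hs4 probe gave -0.86 to 0.29 for the region at both 48 h and 72 h against 0 h. At 48 h the Emu-distal stretch was -1.07 to 0.59, the share of the Emu signal -0.58 to 0.38 and that of the mid-locus signal -0.96 to 0.21. At 72 h the Emu-proximal stretch was -0.197 to 0.13, the Emu-distal stretch -1.27 to 0.39, and these shares -0.68 to 0.28 and -1.03 to 0.14. Calls numbered 0 to 1 at either time, and the region at 72 h against 48 h was -0.17 to 0.098.

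After 1 h of TPL the region was -0.41 to 0.66, the Emu-distal stretch -0.35 to 1.63, and the shares of the Emu and mid-locus signal -0.037 to 0.87 and -0.079 to 0.95. At 3 h against 1 h they were -0.11 to 0.945, -0.33 to 1.33, -0.18 to 0.66 and -0.069 to 0.74, with -0.45 to 0.64 for the Emu-proximal stretch, which was -1.02 to 0.069 at 3 h against no TPL. With IgG3 the region was -0.198 to 0.28, the Emu-proximal stretch -0.75 to 0.15, the Emu-distal stretch -0.068 to 0.51 and the share of the Emu signal -0.36 to 0.071.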
